A study of Schizosaccharomyces pombe with 32 samples.

Results

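Ribosome biogenesis genes encode the proteins that turn precursor ribosomal RNA into ribosomal subunits. On the array for fission yeast, Schizosaccharomyces pombe, 34 of 4972 probe sets carried a gene symbol that follows the naming of these factors (such as utp, nop, rrp, noc, dbp or tsr with a number, without dbp5) or was gar1, nhp2, cbf5 or fib1. The choice used names only and no measured value, and each member had 1 probe set. Ordered by role, 12 members were listed for early precursors and the small subunit and 12 for the large subunit, where rrp12 was placed by name only. Another 5 belong to the particles that guide RNA modification, 3 to the RNA exosome, and dbp2 and nop52 were placed in no role list.

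The series follows strain JB50, a homothallic strain of mating type h90 that can mate with itself, in shaken batch cultures in the rich medium YES. In the stressed series, 2 cultures received 0.5 mM hydrogen peroxide and were sampled 11 times: before the agent (0 min), at 5 and 10 min, at 15 and 30 min, at 50, 60 and 90 min, and at 120, 180 and 240 min. In the untreated series, 2 other cultures of the same strain and medium were sampled at 0, 60, 120, 180 and 240 min. All 4 were independent cultures with no deletion or other agent, and total RNA was hybridised to 32 single-colour Affymetrix arrays. The growth notes describe stressed cultures at more than 1 starting density and do not say which density either stressed culture on the arrays had. Since RNA came from whole cultures with no count per cell, a lower signal in every cell and an unequal response between cells cannot be told apart.

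In a growing yeast, RNA polymerase I makes a long precursor in the nucleolus, and a large particle of Utp proteins, the small subunit processome, folds and cuts it. Small nucleolar RNA particles guide its chemical modification, DEAD-box helicases remodel it, assembly factors build the large subunit on the remainder, and the exosome trims the ends and removes the spacers. Yeasts are known for lowering the messages of these factors when growth is checked by stress, a class often called the ribosome biogenesis regulon. The roles given below for single genes are best known from budding yeast unless another organism is named.

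The signals of almost every member were lower at 50 and 60 min of peroxide than before it, in both cultures. The median member stood at 46.1% of its own 0 min signal at 60 min in culture 1 and at 39.8% in culture 2, against 87.1% and 85.4% at 60 min in the untreated cultures. On the log2 scale the members of cultures 1 and 2 had medians of -1.12 and -1.33 at 60 min relative to 0 min, while the medians of all probe sets were -0.07 and -0.11. All 34 members were lower in both cultures at 50 and at 60 min (47.4% and 45.6% of all probe sets), and tsr3 alone did not have both arrays under both 0 min arrays. That made 33 of 34 members with no overlap at each of these times, where 35.7% of all probe sets lay below at 50 min and 33.5% at 60 min. Both cultures then parted: by 240 min the median change was 0.13 in culture 1, where 8 of 34 members were below 0 min (46.2% of all probe sets), and -1.21 in culture 2, where all 34 were (56.3%).

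**Figure D1:**
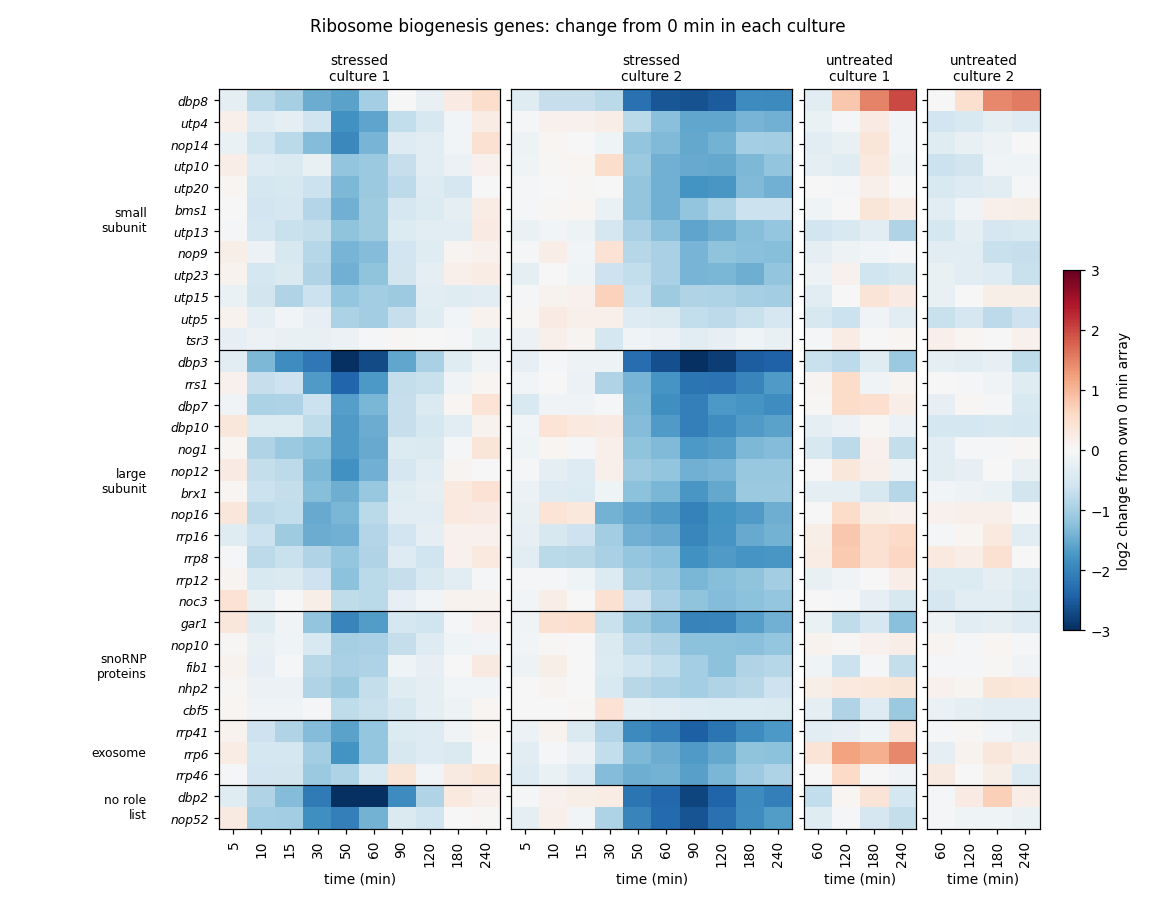
Log2 change of each of the 34 members from the 0 min array of its own culture, by role (rows) and time in min (columns), for both stressed and both untreated cultures; blue is lower and red is higher. At 60 min the stressed changes ran between -3.03 and -0.05 in culture 1 and between -2.63 and -0.17 in culture 2, and by 240 min culture 1 had 8 members below 0 and culture 2 all 34.

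The question of the tests was which members changed at each time of peroxide relative to 0 min, given the spread between cultures. With limma's moderated test over all 32 arrays and Benjamini-Hochberg adjustment over all probe sets, 0 of 34 members passed an adjusted p of 0.05 at any of the 10 times. Few probe sets of any kind passed: 0 at 5, 10 and 15 min, then 1.07%, 0.302%, 0.543%, 0.322%, 0.161%, 0.0402% and 0.0201% at the 7 times that followed. At an unadjusted p under 0.05, 25 of 34 members were lower at 50 min (10.7% of all probe sets) and 25 at 60 min (10.8%). Counts for 90, 120, 180 and 240 min were 16, 10, 1 and 0 (6.68%, 3.12%, 1.99% and 0.925% of all), and for 5, 10, 15 and 30 min they were 0 (0.0805%, 0.402%, 1.11% and 5.37%). The lowest adjusted p of a member was 0.0713 at 50 min and 0.0754 at 60 min, in both cases for bms1. The F-test across the 10 stressed times likewise passed 0 members at the adjusted threshold (0.483% of all probe sets), with 9 of 34 at an unadjusted p under 0.05 (9.19% of all) and a lowest adjusted p of 0.208.

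The same changes were set against a smaller spread when the times after 60 min, at which both stressed cultures parted, were left out of the fit. Leaving out times at which cultures differ favours a smaller spread, and the choice was made with earlier results of these data known. Calls without those times depend on that choice, and the fit of all arrays called 0 members. In limma's fit of the stressed arrays up to 60 min and the untreated arrays, called the fit up to 60 min from here on, 23 of 34 members fell at 60 min (8.05% of all probe sets were called lower) and 24 at 50 min (8.55%), and none rose. At 30 min 0 members passed (1.43% of all called lower), and 15 passed with the culture as a replicate block in that fit (24.5% of all in either direction). In the fit of the compared arrays alone, 15 members fell at 60 min (3.9%) and 19 at 50 min (6.11%). Of the 23 members called at 60 min in the fit up to 60 min, 14 were also called with the compared arrays alone. The other 9 (dbp8, nhp2, noc3, nop10, nop9, rrp12, rrp41, utp13 and utp15) had limma's adjusted p between 0.0515 and 0.144 there, and rrp6 was called only there. These counts lean on each 0 min array. Without the 0 min array of stressed culture 1, 2 members passed at 60 min and 4 at 50 min in the fit up to 60 min (3.8% and 4.22% of all probe sets in either direction), and without that of culture 2 the counts were 2 and 2 (3.06% and 3.12%). The members dbp3 and utp20 passed in all 4 of these fits. With the culture as a replicate block, the fit up to 60 min called 32 members at 60 min (29.2% of all probe sets in either direction) and 32 at 50 min (30.1%), while the block in the fit of all arrays called 0 at both.

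**Figure D2:**
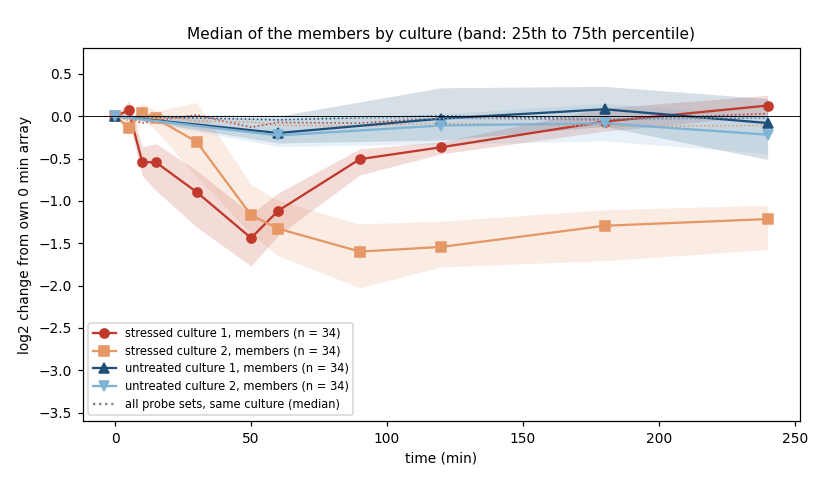
Median log2 change of the 34 members from the 0 min array of each culture (lines with symbols; bands span the 25th to 75th percentile of the members) against time in min, with the median of all probe sets of the same culture dotted. Stressed culture 1 was lowest at 50 min (-1.44) and ended at 0.13, stressed culture 2 was lowest at 90 min (-1.60) and ended at -1.21, and both untreated medians stayed between -0.23 and 0.08.

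In the values that follow, each member's signal is given in time order, on the authors' linear scale, which compares arrays for 1 probe set and not different probe sets. The lowest levels at 60 min relative to 0 min belonged to helicases. The DEAD-box helicase gene dbp2, whose product unwinds RNA in the nucleus and acts in ribosome assembly and messenger RNA processing, led the list. The dbp2 signal was 8.08, 6.31, 4.32, 3.25, 1.84, 1.01, 0.991, 2.17, 4.29, 9.89 and 8.92 in stressed culture 1. Signals of dbp2 in stressed culture 2 were 7.92, 7.61, 8.64, 9.0, 9.17, 1.72, 1.54, 1.18, 1.51, 2.13 and 1.92. Untreated dbp2 signals were 9.76, 5.85, 10.2, 12.8 and 6.81 in culture 1 and 7.52, 7.21, 8.96, 12.4 and 8.58 in culture 2. Every stressed array at 50, 60 and 90 min lay below every untreated array, and at 240 min only culture 2 did. The change at 60 min was -2.69 ± 0.78 (SE), to 15.5% of the 0 min level, with an adjusted p of 0.132 in limma's fit of all arrays and 0.0084 in the fit up to 60 min.

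The other member outside the role lists was nop52, named for a human nucleolar protein of large subunit assembly. The nop52 signal was 7.16, 8.68, 3.54, 3.47, 1.99, 1.72, 2.7, 5.28, 4.76, 7.22 and 7.36 in stressed culture 1. Signals of nop52 in stressed culture 2 were 7.18, 5.88, 7.99, 6.76, 3.8, 1.82, 1.43, 1.2, 1.52, 1.98 and 2.24. Untreated nop52 signals were 8.3, 6.46, 7.95, 5.83 and 5.04 in culture 1 and 5.56, 5.38, 5.12, 5.11 and 4.82 in culture 2. At 60 min both stressed arrays were under all 10 untreated arrays. At 60 min nop52 differed by -1.87 ± 0.71 (SE), with limma's adjusted p at 0.191 over all arrays and 0.0117 up to 60 min.

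Small subunit factors had median log2 changes of -1.09 and -1.25 at 60 min in stressed cultures 1 and 2. In both cultures 12 of 12 were lower (45.6% of all probe sets). In limma's fit up to 60 min, 9 of the 12 fell (8.05% of all probe sets were called lower). The gene bms1 encodes the GTPase of the small subunit processome and had the lowest F-test p of the list. The bms1 signal was 2.62, 2.65, 1.76, 1.85, 1.41, 0.962, 1.25, 1.83, 1.97, 2.12 and 3.06 in stressed culture 1. Signals of bms1 in stressed culture 2 were 2.81, 2.76, 2.89, 2.9, 2.45, 1.24, 1.03, 1.25, 1.45, 1.8 and 1.81. Untreated bms1 signals were 2.95, 2.67, 2.95, 3.78 and 3.44 in culture 1 and 3.04, 2.43, 2.83, 3.38 and 3.45 in culture 2. The stressed arrays at 50 and 60 min were all under the lowest untreated array, and at 240 min culture 1 stood above its starting signal and culture 2 below it. Its change at 60 min was -1.26 ± 0.31 (SE), and limma's adjusted p was 0.0754 over all arrays and 0.01 up to 60 min.

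The product of utp10 binds the precursor early and belongs to the Utp group that joins it as it is transcribed. The utp10 signal was 3.78, 4.32, 2.91, 2.8, 3.24, 1.66, 1.74, 2.34, 3.02, 3.33 and 4.11 in stressed culture 1. Signals of utp10 in stressed culture 2 were 3.99, 3.63, 4.08, 4.17, 5.72, 1.83, 1.48, 1.4, 1.37, 1.57 and 1.77. Untreated utp10 signals were 3.31, 2.74, 2.56, 4.08 and 2.99 in culture 1 and 4.4, 2.82, 3.0, 4.08 and 4.05 in culture 2. Culture 2 had its highest utp10 signal at 30 min, on an array that stood apart from the rest, and both cultures were under all untreated arrays from 50 to 90 min. For utp10 the change was -1.28 ± 0.43 (SE) at 60 min, with limma's adjusted p 0.18 over all arrays and 0.00916 up to 60 min.

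A weaker difference was seen for utp5, another member of that early Utp group. The utp5 signal was 1.68, 1.8, 1.4, 1.6, 1.42, 0.879, 0.811, 1.04, 1.3, 1.59 and 1.81 in stressed culture 1. Signals of utp5 in stressed culture 2 were 1.59, 1.62, 1.88, 1.77, 1.76, 1.22, 1.18, 0.946, 0.924, 0.993 and 1.12. Untreated utp5 signals were 1.68, 1.22, 1.07, 1.57 and 1.35 in culture 1 and 2.19, 1.37, 1.54, 1.28 and 1.42 in culture 2. Stressed culture 1 at 60 min was below every untreated array, and stressed culture 2 was not. Its change of -0.74 ± 0.30 (SE) at 60 min did not pass in limma's fit of all arrays (adjusted p = 0.207) nor up to 60 min (0.0673). The untreated cultures had a mean utp5 change of -0.57 at 60 min. The stressed change less the untreated change was -0.17 ± 0.36 (SE; limma's adjusted p = 0.885 in the fit up to 60 min).

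The gene tsr3 stood apart from the rest. Its product is the enzyme that completes a modified base of the small subunit RNA, late and in the cytoplasm. The tsr3 signal was 3.15, 2.67, 2.77, 2.69, 2.68, 2.79, 3.05, 3.22, 3.16, 3.07 and 2.75 in stressed culture 1. Signals of tsr3 in stressed culture 2 were 2.42, 2.16, 2.69, 2.58, 1.68, 2.26, 2.16, 1.95, 2.04, 2.2 and 2.09. Untreated tsr3 signals were 2.82, 2.76, 3.31, 2.82 and 2.93 in culture 1 and 2.18, 2.42, 2.26, 2.15 and 2.4 in culture 2. Stressed and untreated arrays overlapped at 50 and 60 min, and the lowest of all its signals was at 30 min in culture 2. The change at 60 min was -0.11 ± 0.32 (SE; limma's adjusted p = 0.879 over all arrays).

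The other small subunit genes were dbp8, a helicase gene, nop9 and nop14, and utp4, utp13, utp15, utp20 and utp23, all named for processome components. Their mean changes at 60 min lay between -1.79 (dbp8) and -1.06 (utp15). The utp20 change was -1.27 ± 0.45 (SE), with limma's adjusted p of 0.18 over all arrays and 0.00455 up to 60 min. At 50 min utp4 and nop14 were at their lowest in culture 1, with log2 changes of -1.82 and -1.93.

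**Figure D3:**
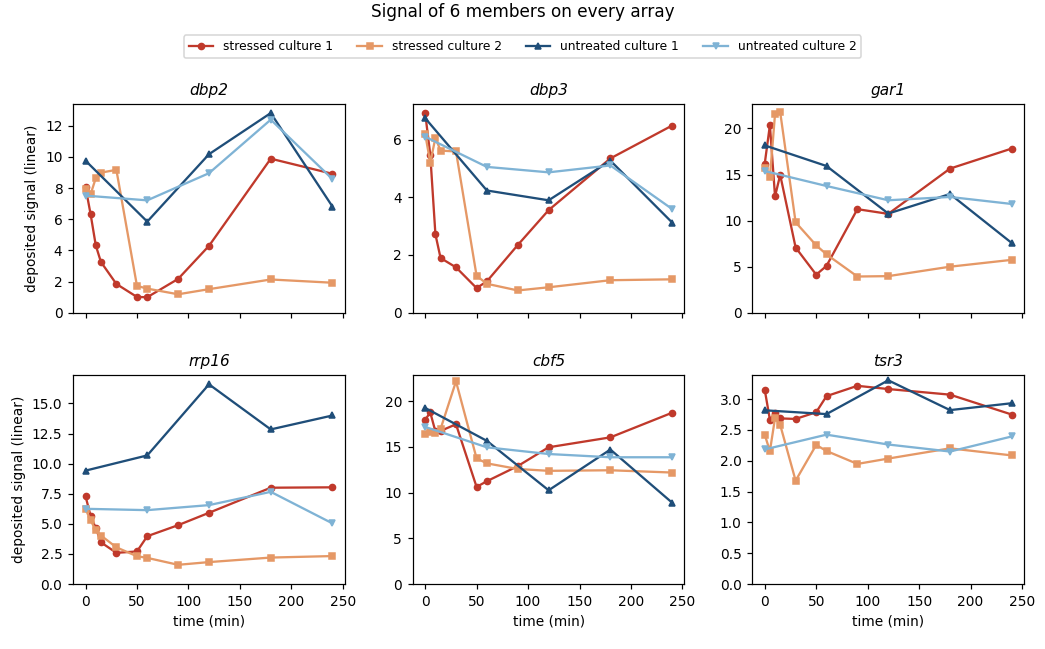
Deposited signal (linear scale, from 0) of dbp2, dbp3, gar1, rrp16, cbf5 and tsr3 on every array against time in min, with a line per culture. The stressed lines of dbp2, dbp3 and gar1 dip at 50 to 60 min in both cultures and rejoin the untreated lines only in culture 1, rrp16 is lower in both cultures by 15 min, and tsr3 shows no dip at 50 to 60 min.

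For the large subunit factors these medians were -1.25 and -1.45. All 12, rrp12 included, were lower in both cultures with no overlap with 0 min, where 33.5% of all probe sets lay below. In limma's fit up to 60 min 8 of 12 fell (8.05% of all probe sets were called lower). The helicase gene dbp3, whose product acts on the precursor of the large subunit, had the lowest change of all members after dbp2. The dbp3 signal was 6.93, 5.47, 2.72, 1.89, 1.57, 0.852, 1.08, 2.34, 3.55, 5.35 and 6.49 in stressed culture 1. Signals of dbp3 in stressed culture 2 were 6.21, 5.2, 6.06, 5.62, 5.59, 1.28, 1.0, 0.77, 0.879, 1.12 and 1.16. Untreated dbp3 signals were 6.75, 4.24, 3.9, 5.27 and 3.13 in culture 1 and 6.1, 5.05, 4.87, 5.1 and 3.59 in culture 2. In culture 1 it was already low at 10 min, in culture 2 only from 50 min, and the untreated cultures also stood lower at 240 than at 0 min. Its change at 60 min was -2.65 ± 0.83 (SE), to 15.9% of 0 min, with limma's adjusted p 0.153 over all arrays and 0.00483 up to 60 min.

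Another helicase gene of the large subunit, dbp10, had the lowest F-test p of its list. The dbp10 signal was 2.26, 2.86, 1.7, 1.7, 1.32, 0.696, 0.811, 1.4, 1.57, 1.77 and 2.44 in stressed culture 1. Signals of dbp10 in stressed culture 2 were 2.79, 2.62, 3.69, 3.39, 3.3, 1.13, 0.863, 0.671, 0.772, 0.853 and 0.91. Untreated dbp10 signals were 2.5, 2.03, 2.2, 2.58 and 2.2 in culture 1 and 2.58, 1.77, 1.8, 1.85 and 1.78 in culture 2. Culture 2 exceeded its 0 min level at 10, 15 and 30 min and stood below it from 50 min on. For dbp10 the change was -1.59 ± 0.54 (SE) at 60 min, with limma's adjusted p 0.18 over all arrays and 0.0236 up to 60 min.

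The probe set annotated rrp12 belongs by gene ID to a locus to which RefSeq gives no gene name, and RefSeq gives the name rrp12 to another locus, so no role is stated for it and it stands among the large subunit factors by name only. The rrp12 signal was 1.77, 1.88, 1.3, 1.3, 1.16, 0.759, 1.02, 1.1, 1.3, 1.42 and 1.7 in stressed culture 1. Signals of rrp12 in stressed culture 2 were 1.91, 1.84, 1.84, 1.76, 1.43, 0.953, 0.877, 0.733, 0.786, 0.831 and 0.921. Untreated rrp12 signals were 2.07, 1.77, 1.92, 2.08 and 2.39 in culture 1 and 2.09, 1.58, 1.58, 1.73 and 1.58 in culture 2. Both stressed cultures were under all untreated arrays from 50 to 180 min. At 60 min the change was -0.96 ± 0.33 (SE), with limma's adjusted p 0.18 over all arrays, 0.0663 for the compared arrays alone and 0.0179 up to 60 min.

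The gene rrp8 encodes a methyltransferase of the large subunit RNA, and had the highest F-test p of the large subunit list. The rrp8 signal was 2.72, 2.65, 1.59, 1.7, 1.45, 1.22, 1.45, 2.08, 1.8, 2.98 and 3.3 in stressed culture 1. Signals of rrp8 in stressed culture 2 were 2.77, 2.24, 1.58, 1.55, 1.41, 1.24, 1.16, 0.791, 0.854, 0.813 and 0.831. Untreated rrp8 signals were 4.36, 5.06, 7.5, 5.95 and 6.65 in culture 1 and 2.39, 2.92, 2.76, 3.26 and 2.39 in culture 2. Both stressed cultures were low by 10 min, and untreated culture 1 stood above untreated culture 2 at every time. Its change of -1.08 ± 0.68 (SE) at 60 min passed neither limma's fit of all arrays (adjusted p = 0.393) nor the fit up to 60 min (0.157).

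Of the other 8 large subunit genes, rrs1, brx1, nop16 and rrp16 encode assembly factors, nog1 a GTPase, noc3 and nop12 nucleolar proteins of the precursor, and dbp7 a helicase. Their mean changes at 60 min lay between -1.75 (rrs1) and -0.89 (noc3). For rrs1 the change was -1.75 ± 0.69 (SE), with limma's adjusted p of 0.199 over all arrays and 0.0266 up to 60 min. Signals of noc3 at 30 min were 2.40 and 3.03 in stressed cultures 1 and 2, above both 0 min values of 2.14 and 2.19, and noc3 was the only member with both arrays above both 0 min arrays at any stressed time (26.3% of all probe sets at 30 min).

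**Figure D4:**
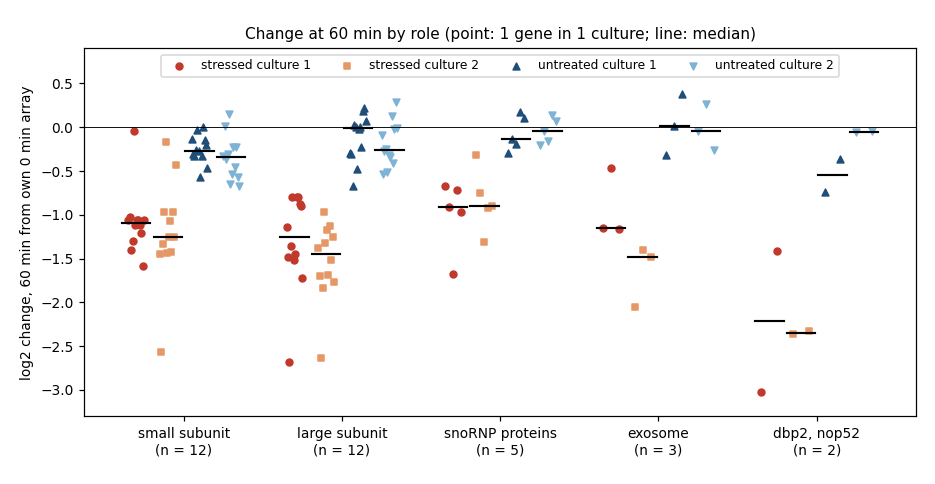
Log2 change at 60 min from the 0 min array of the same culture, by role, with a point per gene and culture and a black line at the median. Medians of the stressed cultures ran from -2.34 for dbp2 and nop52 to -0.90 for the snoRNP proteins, and the untreated medians lay between -0.55 and 0.01.

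The 5 proteins of small nucleolar particles (snoRNPs) had the smallest median changes of the roles at 60 min, -0.92 and -0.90 for cultures 1 and 2, and the difference between roles was not tested. Of the 5, gar1, nhp2 and nop10 fell in limma's fit up to 60 min (8.05% of all probe sets were called lower). The gar1 product is a core protein of the particles that guide pseudouridylation. The gar1 signal was 16.2, 20.4, 12.6, 14.96, 7.07, 4.12, 5.08, 11.2, 10.7, 15.6 and 17.8 in stressed culture 1. Signals of gar1 in stressed culture 2 were 15.7, 14.7, 21.6, 21.8, 9.81, 7.31, 6.33, 3.92, 3.97, 4.99 and 5.73. Untreated gar1 signals were 18.2, 15.9, 10.8, 12.9 and 7.56 in culture 1 and 15.4, 13.8, 12.2, 12.6 and 11.8 in culture 2. Both stressed cultures were under all untreated arrays at 50 and 60 min, and untreated culture 1 ended lower than it began. The change at 60 min was -1.49 ± 0.59 (SE), with limma's adjusted p 0.199 over all arrays and 0.00875 up to 60 min.

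The nhp2 and nop10 products sit in the same particles. The nhp2 signal was 16.7, 17.2, 14.9, 14.9, 8.97, 7.75, 10.2, 13.04, 13.6, 15.8 and 15.7 in stressed culture 1. Signals of nhp2 in stressed culture 2 were 13.6, 13.5, 14.4, 13.6, 9.93, 7.7, 7.21, 6.74, 7.32, 7.72 and 8.87. Untreated nhp2 signals were 21.5, 24.3, 26.4, 26.98 and 27.7 in culture 1 and 17.2, 18.9, 18.3, 22.1 and 21.5 in culture 2. The stressed cultures stood below all untreated arrays before peroxide was added, so the position of nhp2 against the untreated arrays at later times carries that starting difference (-0.35 ± 0.38 (SE) at 0 min, limma's adjusted p = 1.0 over all arrays). Against its own 0 min arrays nhp2 differed by -0.82 ± 0.38 (SE) at 60 min, with limma's adjusted p 0.247 over all arrays, 0.144 for the compared arrays alone and 0.0381 up to 60 min.

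A similar course held for nop10. The nop10 signal was 15.7, 16.2, 13.5, 14.4, 11.5, 7.9, 8.06, 9.52, 12.1, 14.3 and 14.8 in stressed culture 1. Signals of nop10 in stressed culture 2 were 11.9, 11.2, 12.2, 11.8, 8.76, 6.89, 6.38, 5.04, 5.08, 4.96 and 5.35. Untreated nop10 signals were 20.2, 21.8, 20.9, 22.00 and 23.2 in culture 1 and 16.2, 17.1, 15.8, 16.8 and 15.5 in culture 2. Stressed culture 2 began below all untreated arrays. Culture 1 came back to within its early range by 180 min, and culture 2 did not. Its change at 60 min was -0.93 ± 0.49 (SE), with limma's adjusted p 0.311 over all arrays, 0.106 for the compared arrays alone and 0.0361 up to 60 min.

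Fibrillarin, the methyltransferase of the other class of guide particles, is encoded by fib1. The fib1 signal was 15.5, 16.6, 13.1, 15.1, 8.72, 7.89, 8.24, 14.2, 13.1, 15.7 and 18.6 in stressed culture 1. Signals of fib1 in stressed culture 2 were 17.8, 15.9, 20.2, 17.8, 13.4, 11.8, 10.6, 8.71, 7.63, 9.48 and 9.79. Untreated fib1 signals were 19.8, 18.1, 12.6, 18.9 and 12.1 in culture 1 and 15.96, 15.5, 15.3, 16.4 and 14.9 in culture 2. At 60 min both stressed arrays lay under every untreated array. The change of -0.83 ± 0.36 (SE) passed neither limma's fit of all arrays (adjusted p = 0.229) nor the fit up to 60 min (0.0565).

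The pseudouridine synthase gene cbf5 had the smallest change after tsr3. The cbf5 signal was 17.97, 18.8, 16.7, 16.8, 17.5, 10.6, 11.3, 12.9, 14.97, 16.1 and 18.7 in stressed culture 1. Signals of cbf5 in stressed culture 2 were 16.5, 16.6, 16.5, 16.97, 22.2, 13.8, 13.2, 12.6, 12.4, 12.5 and 12.2. Untreated cbf5 signals were 19.3, 15.7, 10.3, 14.7 and 8.91 in culture 1 and 17.2, 14.96, 14.2, 13.9 and 13.9 in culture 2. Stressed arrays at 60 min lay under both 0 min arrays, yet untreated culture 1 reached lower values at 120 and 240 min. Its change at 60 min was -0.50 ± 0.25 (SE), with limma's adjusted p 0.287 over all arrays and 0.179 up to 60 min.

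The exosome is the complex that trims and degrades RNA from its 3′ end. Its 3 members had medians of -1.15 and -1.48 at 60 min for cultures 1 and 2. All 3 lay below 0 min with no overlap, as did 33.5% of all probe sets. In limma's fit up to 60 min rrp41 fell (8.05% of all probe sets were called lower). The gene rrp41 encodes a subunit of the exosome ring. The rrp41 signal was 4.38, 4.75, 2.84, 2.34, 1.77, 1.43, 1.98, 3.31, 3.34, 4.11 and 4.55 in stressed culture 1. Signals of rrp41 in stressed culture 2 were 4.78, 4.26, 5.18, 3.52, 2.58, 1.28, 1.15, 0.869, 1.04, 1.3 and 1.45. Untreated rrp41 signals were 5.15, 4.13, 4.33, 4.72 and 6.79 in culture 1 and 3.84, 3.74, 3.92, 3.65 and 3.3 in culture 2. At 30, 50 and 60 min both stressed cultures were under all untreated arrays. The change at 60 min was -1.60 ± 0.65 (SE), with limma's adjusted p 0.211 over all arrays, 0.0518 for the compared arrays alone and 0.0107 up to 60 min.

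The nuclear exonuclease that joins the exosome is the product of rrp6. The rrp6 signal was 1.18, 1.39, 0.817, 0.815, 0.577, 0.341, 0.529, 0.852, 0.904, 0.877 and 1.17 in stressed culture 1. Signals of rrp6 in stressed culture 2 were 1.38, 1.09, 1.35, 1.22, 0.83, 0.54, 0.494, 0.422, 0.472, 0.593 and 0.583. Untreated rrp6 signals were 1.43, 1.86, 3.3, 2.98 and 3.86 in culture 1 and 1.27, 1.06, 1.36, 1.61 and 1.45 in culture 2. Stressed arrays at 50 and 60 min were under all untreated ones, and in untreated culture 1 the signal stood higher from 120 min on. At 60 min the change was -1.32 ± 0.53 (SE), with limma's adjusted p 0.209 over all arrays, 0.0384 for the compared arrays alone and 0.0917 up to 60 min.

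Another ring subunit is encoded by rrp46. The rrp46 signal was 2.81, 2.76, 1.9, 1.92, 1.31, 1.49, 2.04, 3.61, 2.64, 3.39 and 3.62 in stressed culture 1. Signals of rrp46 in stressed culture 2 were 2.48, 1.89, 2.18, 1.9, 1.01, 0.90, 0.936, 0.804, 0.966, 1.16 and 1.31. Untreated rrp46 signals were 4.08, 4.12, 6.12, 4.05 and 3.78 in culture 1 and 2.19, 2.63, 2.17, 2.48 and 1.65 in culture 2. Stressed culture 1 exceeded its 0 min signal at 90 min, and at 60 min it overlapped the untreated arrays. Its change of -0.93 ± 0.72 (SE) at 60 min passed neither limma's fit of all arrays (adjusted p = 0.486) nor that up to 60 min (0.267).

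Across roles, the 5 members named as DEAD-box helicases (dbp2, dbp3, dbp7, dbp8 and dbp10) had medians of -1.48 and -2.36 at 60 min for cultures 1 and 2. All 5 fell at 50 and 60 min in limma's fit up to 60 min (8.55% and 8.05% of all probe sets were called lower). They occupied 5 of the 8 lowest places in the order of the 34 members at 60 min, an order that runs from dbp2 (-2.69) to tsr3 (-0.11). The widest gaps between neighbours in this order were 0.79 between nop52 and dbp3 (SE 0.71 and 0.83), 0.39 between tsr3 and cbf5 (SE 0.32 and 0.25) and 0.24 between cbf5 and utp5 (SE 0.25 and 0.30), and no pair of neighbours differed by more than their combined errors. Among all 4972 probe sets ordered by the change at 60 min, 26 of 34 members lay in the lowest 10% and 33 in the lowest 25%, with a median percentile of 5.60. The cultures ordered the members alike in part: across the 34 genes, the changes at 60 min of culture 1 and culture 2 had a Pearson r of 0.62 and a Spearman rho of 0.48, where genes measured on the same arrays are not independent.

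The onset differed between the stressed cultures. In culture 1 all 34 members stood below 0 min at 10 and at 15 min (65.3% and 56.1% of all probe sets), with a median change of -0.54 at both times. In culture 2, 11 members stood below 0 min at 10 min and 20 at 15 min (49.9% and 48.6% of all), with medians of 0.04 and -0.03. Both arrays lay below both 0 min arrays for 6 members at 5 min (17.4% of all probe sets), 7 at 10 min (18.9%), 13 at 15 min (21.2%) and 20 at 30 min (22.6%), so at 5 and 10 min the share of members was close to that of all probe sets. The members dbp3, rrp16 and rrp8 were among them at all 4 times. The rrp16 signal, for a large subunit factor also called nop53, was 7.31, 5.64, 4.66, 3.47, 2.6, 2.71, 3.98, 4.89, 5.92, 8.0 and 8.03 in stressed culture 1. Signals of rrp16 in stressed culture 2 were 6.24, 5.29, 4.47, 4.03, 3.05, 2.31, 2.18, 1.6, 1.83, 2.2 and 2.33. Untreated rrp16 signals were 9.42, 10.7, 16.6, 12.8 and 14.00 in culture 1 and 6.25, 6.14, 6.56, 7.66 and 5.04 in culture 2. Both stressed cultures were lower at each successive time up to 30 min, and untreated culture 1 stood above untreated culture 2 throughout. At 15 min limma's fit of all arrays gave 0 members an unadjusted p under 0.05.

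Depth and return also differed. In culture 1, 27 of 34 members had their lowest signal at 50 min, and in culture 2, 22 had it at 90 min and 6 at 120 min. Members at or below 50% of their 0 min signal numbered 27 and 22 for cultures 1 and 2 at 50 min (11.2% and 10.2% of all probe sets), and 23 and 25 at 60 min (8.02% and 12.8%). In culture 1 the counts at 90, 120, 180 and 240 min were 3, 0, 0 and 0 (3.64%, 0.422%, 0.583% and 1.25% of all). In culture 2 they were 30, 28, 27 and 27 (14.8%, 13.8%, 13.1% and 12.7%). The cultures thus overlapped in how low the members went at 50 and 60 min and not in how long they stayed there. At 240 min dbp3 had 6.49 in culture 1 and 1.16 in culture 2. All 34 members were higher in culture 1 relative to 0 min, where 43.8% of all probe sets were higher in culture 2. With 1 array per culture and time, the difference between the cultures has no test, and the labels tie neither culture to a starting density. Median changes of the members at 90, 120, 180 and 240 min were -0.51, -0.37, -0.06 and 0.13 in culture 1. In culture 2 they were -1.60, -1.54, -1.29 and -1.21.

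The stressed cultures were also set against the untreated cultures, to ask whether growth alone moved the members. Before peroxide the median difference, stressed less untreated, was -0.09 over the members and -0.10 over all probe sets, and limma's fit of all arrays called 0 members (0 of all probe sets), with 0 members at an unadjusted p under 0.05 (1.31% of all). At 50 min 29 of 34 members were below all 10 untreated arrays in both stressed cultures (23.2% of all probe sets), and 29 at 60 min (21.6%). For 90, 120, 180 and 240 min the numbers were 21, 17, 7 and 3 (18.9%, 13.6%, 10.3% and 9.33%), and culture 2 alone had 32 at the last time (37.5%). The 3 members at 240 min were nhp2, nop10 and utp15. Before peroxide nhp2 already lay below all 10 untreated arrays in both stressed cultures, and nop10 did in culture 2. The members not below at both 50 and 60 min were cbf5, tsr3, utp23 and utp5, with noc3 at 50 min and rrp46 at 60 min.

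The difference between the stressed and the untreated change at 60 min was below 0 for 34 of 34 members, with a median of -1.04, where 55.2% of all probe sets were below 0. It was largest for dbp2 at -2.29 ± 1.11 (SE) and dbp3 at -2.18 ± 1.17 (SE). In limma's fit of all arrays 0 members passed (0.0402% of all probe sets), and 1 member, bms1, had an unadjusted p under 0.05 (6.62% of all). In the fit of the compared arrays alone dbp2 and dbp3 passed (adjusted p = 0.0264 and 0.0130; 2.63% of all), in the fit up to 60 min 0 members passed (1.61%), and with the culture as a replicate block in that fit 11 passed (11% of all): dbp2, dbp3, dbp7, gar1, nhp2, nop10, rrp16, rrp6, rrp8, rrs1 and utp20. Median differences for 120, 180 and 240 min were -0.78, -0.73 and -0.39, and 0 members passed at each in limma's fit of all arrays (0.261%, 1.45% and 1.49% of all), with 1 member at an unadjusted p under 0.05 each time (8.47%, 10.2% and 11.9% of all), rrp6 at 120 min and dbp8 at the other two. These differences and the changes from 0 min share the stressed 0 min arrays.

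Without peroxide the medians of the members stayed near their starting levels, and below them at 60 min in both cultures. Median changes of the members in untreated cultures 1 and 2 were -0.20 and -0.23 at 60 min and -0.08 and -0.22 at 240 min, and in between they lay from -0.11 to 0.08. Limma's fit of all arrays called 0 members at each time, against 0.0402%, 1.13%, 5.53% and 9.86% of all probe sets at 60, 120, 180 and 240 min, with 0, 1, 0 and 2 members at an unadjusted p under 0.05 (2.41%, 9.39%, 16.6% and 22.6% of all). At 60 min 14 members had both arrays below both 0 min arrays and 0 had both above. The same counts, 14 and 0, held at 120 min, and at 180 min they were 9 and 6. At 240 min 13 members had both arrays below both 0 min arrays (27.8% of all) and 4 had both above (24.8%). The share of all probe sets is given for 240 min only. The counts at 60, 120 and 180 min therefore cannot be set against all probe sets, and nothing is read from them. The helicase gene dbp8 stood higher with time there. The dbp8 signal was 1.51, 1.23, 0.858, 0.759, 0.543, 0.497, 0.747, 1.5, 1.29, 1.81 and 2.18 in stressed culture 1. Signals of dbp8 in stressed culture 2 were 1.95, 1.52, 1.22, 1.22, 1.11, 0.417, 0.33, 0.321, 0.347, 0.525 and 0.523. Untreated dbp8 signals were 1.96, 1.58, 3.42, 5.56 and 7.82 in culture 1 and 1.32, 1.33, 1.83, 3.56 and 3.88 in culture 2. Both untreated arrays at 180 and 240 min lay above every stressed array. In limma's fit of the compared arrays alone dbp8 rose at 180 min (1.47 ± 0.30 (SE), adjusted p = 0.00141, 17.2% of all called) and at 240 min (1.78 ± 0.42 (SE), adjusted p = 0.00522, 10.9% of all). At 240 min cbf5 stood lower by -0.71 ± 0.25 (SE; limma's adjusted p = 0.0805 over all arrays, 0.287 for the compared arrays alone and 0.0425 with the culture as a replicate block, where 19.1% of all probe sets were called).

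Genes of the same pathway outside the naming rule were looked at from lists of other assembly factors and of RNA polymerases I and III. Among all probe sets at 60 min, 33.5% had both arrays below both 0 min arrays, 8.05% were called lower in limma's fit up to 60 min and 10.8% were lower at an unadjusted p under 0.05 in the fit of all arrays. Of 32 genes found by the names of other assembly factors, 28 had both arrays below both 0 min arrays at 60 min. Medians of the 32 were -1.24 and -1.29 for cultures 1 and 2, and 23 of the 32 fell in limma's fit up to 60 min. Names such as arb1 and dim1 may stand for genes of other functions in fission yeast and were counted. Of 16 genes listed for RNA polymerase I and its factors, reb1 included, 14 were below, with medians of -1.02 and -1.17, and 7 fell. RNA polymerase III makes 5S ribosomal RNA and transfer RNA. Of 20 genes listed for it and its factors, the regulator maf1 included, 16 were below and 1 above, with medians of -0.73 and -1.01, and 8 fell. The 118 cytosolic ribosomal protein genes had medians of -0.19 and -0.13, 68 were below and 3 fell. In limma's fit of all arrays 0 genes of these lists passed at 60 min, with 19 assembly factors, 7 polymerase I genes, 8 polymerase III genes and 3 ribosomal protein genes at an unadjusted p under 0.05.

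The largest subunit of RNA polymerase I is encoded by nuc1, whose signals at 60 min were 2.29 and 2.43 in stressed cultures 1 and 2, against 7.91 and 8.71 at 0 min. Its change was -1.81 ± 0.55 (SE), with limma's adjusted p 0.141 over all arrays and 0.0035 up to 60 min. For rpa34, another subunit, the signals were 2.0 and 1.78 at 60 min, against 7.29 and 6.43 at 0 min (-1.86 ± 0.66 (SE), limma's adjusted p 0.18 over all arrays and 0.00324 up to 60 min). The polymerase III genes rpc37 and rpc2 differed by -1.25 ± 0.52 (SE) and -1.39 ± 0.50 (SE) in limma's fit, with adjusted p values of 0.0460 and 0.0349 up to 60 min and of 0.216 and 0.181 over all arrays. The helicase genes prp43 and mtr4, whose products remodel precursors, differed by -1.32 ± 0.36 (SE) and -0.91 ± 0.30 (SE). Their adjusted p values by limma were 0.0155 and 0.0237 up to 60 min and 0.106 and 0.18 over all arrays. By 240 min all 6 stood between -0.03 and 0.54 of 0 min on the log2 scale in stressed culture 1 and at or below -0.89 in culture 2.

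A property that the naming rule did not use was gene length, taken from RefSeq for all 34 members (median 2009 bases). At 60 min of peroxide the medians of the 17 longer and 17 shorter genes were -1.16 and -1.02 in culture 1 and -1.41 and -1.26 in culture 2. The Spearman rho between length and change across the 34 members was 0.3 or less in size on 22 of the 28 arrays after 0 min and larger on 6. At 30 min in stressed culture 2 the 17 longer genes had a median of -0.01 and the 17 shorter genes of -0.62, with a rho of 0.57 across the members and 0.34 across 2900 named probe sets. Stressed culture 1 at the same time had medians of -0.77 for the longer and -1.19 for the shorter genes (rho 0.37, and 0.25 across all). Longer genes stood lower in untreated culture 2, with a rho of -0.78 at 60 min and -0.46 at 120 min across the members (-0.57 and -0.28 across all). In stressed culture 1 the rho was -0.34 at 90 min and -0.42 at 180 min (-0.06 and -0.35 across all). Genes on 1 array share its RNA sample and are not independent, so these are descriptions.

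**Figure D5:**
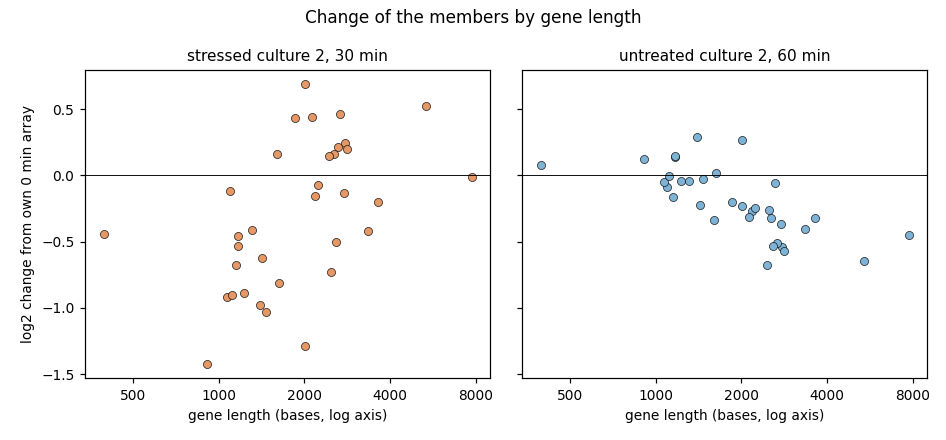
Log2 change from the 0 min array of the same culture against gene length in bases (log axis) for the 34 members, at 30 min in stressed culture 2 and at 60 min in untreated culture 2. On the stressed array longer genes stood higher (rho 0.57), and on the untreated array longer genes stood lower (rho -0.78).

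The 30 min array of stressed culture 2 was also the least like any other: its highest correlation with another array over all probe sets was 0.909, where every other array had at least 0.973. On it the members' median change was -0.30, against -0.90 at 30 min in culture 1. Without that array limma's fit of all arrays called 1 member at 60 min, bms1 (0.986% of all probe sets), and the fit up to 60 min called 24 members at 60 min, 26 at 50 min and, with culture 1 alone at that time, 5 at 30 min (17.4%, 18% and 6.01% of all in either direction). The part of RNA quality or labelling in the pattern by length was not tested.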

How the data were processed

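Total RNA was labelled by in vitro transcription and hybridised to 32 single-colour Affymetrix arrays, per the labels' protocols, and the series, time and culture of each array came from its title (16 groups of 2 arrays). The authors deposited 1 linear signal for each probe set and array, with 0.0029 as the lowest and 64.6 as the highest value. Background correction, summarisation and scaling are not given in the sources used here, detection calls were not used, and the number of arrays limits the precision.

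The log2 signals of all 4972 probe sets were fitted with limma 3.58.1 in R 4.3.3 (lmFit, eBayes, 1 mean per group, 16 residual and 3.23 prior degrees of freedom). Adjusted p-values are limma's after Benjamini-Hochberg adjustment within each comparison, at a threshold of 0.05. A change within 1 culture has no test. Alternatives covered scaling, pseudocount, filters, the arrays in the fit, the 0 min arrays and the culture as a block.

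Members were found by symbol in the platform annotation (1 symbol for 2903 probe sets, several for 16, none given here for 2053), and all 34 matched RefSeq (assembly ASM294v3) by gene ID, 33 under the same symbol and rrp12 at a locus without one. The large subunit list took rrp16 through its synonym nop53. Names of 100 other assembly factors found 32 probe sets, 24 names for RNA polymerase I found 16, 27 for RNA polymerase III found 20, and ribosomal proteins were taken by symbol. The names cam1, mak10, nep1, rna1 and sen1 were dropped from the assembly list after the files were read, because they name genes of other functions there. The remaining names, arb1 and dim1 among them, were kept by name only and may include genes of other functions. Every array's value is given for dbp2, the snoRNP proteins, the members with the lowest 2 and the highest F-test p of the small subunit, large subunit and exosome lists, and the lowest 3 and highest 3 at 60 min. For the outside lists the lowest 2 by F-test p are named. The values of rrp16, dbp8, noc3, utp20 and rrs1 were chosen after they were seen. The members, lists and alternatives were chosen with earlier results of these data known.

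Culture numbers pair arrays within a series, since each number is 1 culture followed through time, but do not pair stressed with untreated cultures. Across probe sets, the difference between cultures correlated over pairs of times with a median r of 0.707 in the untreated series (10 of 10 pairs above 0.1) and 0.259 in the stressed series (34 of 55).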

Additional observations from a re-analysis of the deposited data

How the results depend on the processing

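Quantile normalization, median centring, a pseudocount of 0.1, a filter at the 25th percentile of mean signal (33 of 34 members passed) and the use of probe sets with 1 symbol left the number of members called at 0 in all 20 comparisons. The median change of the members at 60 min less that of all probe sets was -1.15 and lay between -1.27 and -1.04 over all alternatives. Fits that changed only the arrays of other groups, or added the culture block, left each change at 60 min the same by construction. Those fits could not move this value. The arrays in the fit moved the counts. With the compared arrays alone, the stressed cultures had 19 members called at 50 min and 15 at 60 min, the untreated cultures 1 at 180 min and 1 at 240 min, and the difference of changes 2 at 60 min. With stressed arrays up to 60 min and untreated arrays the counts were 24 at 50 min and 23 at 60 min. Without the 30 min array of stressed culture 2, 1 member was called at 60 min in the fit of all arrays, and 5, 26 and 24 at 30, 50 and 60 min in the fit up to 60 min. In that fit 4 and 2 were called at 50 and 60 min without the 0 min array of stressed culture 1, and 2 and 2 without that of stressed culture 2. With all 4 arrays at 0 min as the comparison, 5, 7 and 1 were called at 50 min, 60 min and untreated 240 min (4.06%, 4.12% and 17.5% of all probe sets). The fits without a 0 min array of 1 stressed culture and those of the fit up to 60 min beyond its plain form were chosen after seeing the data.

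The culture as a replicate block, which uses the pairing within a series, called 1 member (cbf5, lower) in untreated cultures at 240 min in the fit of all arrays and changed no other count there. In the fit up to 60 min it called 15, 32 and 32 members at 30, 50 and 60 min (24.5%, 30.1% and 29.2% of all) and 11 in the difference of changes (11% of all). It could not be fitted for stressed against untreated cultures at 0 min, where each culture lies in 1 series.

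Leaving out 1 culture in turn gave 0 to 2 members at 30 min, 0 to 13 at 50 min, 0 to 13 at 60 min, 0 to 17 at 90 min, 0 to 17 at 120 min, 0 to 10 at 180 min and 0 to 9 at 240 min. The shares of all probe sets called reached 2.33%, 7.48%, 6.4%, 11.6%, 12.3%, 9.21% and 7.9% at these times. It gave 0 to 2 in untreated cultures at 240 min, 0 to 2, 0 to 3, 0 to 3 and 0 to 1 in the differences of changes at 60, 120, 180 and 240 min, and 0 to 15 in the F-test, where the shares of all reached 13.5%, 1.95%, 4.97%, 4.83%, 2.86% and 11.9%. At 60 min the count was 13 without stressed culture 1 (6.4% of all) and 6 without stressed culture 2 (4.81%), and at 50 min 4 (3.96%) and 13 (7.48%). Without 1 stressed culture, each stressed group holds 1 array, and the spread comes from the untreated groups alone. The lone stressed array at a time is assumed to vary like those groups, so these counts do not test a culture. The change of tsr3 at 60 min was 0.083 without the 0 min array of stressed culture 1, in both fits, where its adjusted p by limma was far from the threshold. The cause of these shifts was not tested.

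With 2 arrays per group, a spread shared over times and an unknown floor of the signal, small changes of single members cannot be resolved, and folds from low signals have no known bound. The scale between arrays rests on the authors' processing. The stressed and untreated cultures were grown separately, so culture and treatment cannot be told apart beyond the 2 cultures of each.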
